A study of Mus musculus with 12 samples.

Results

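The IFIT genes (interferon-induced proteins with tetratricopeptide repeats) were followed in cultured mouse macrophages given TGFβ, the TLR2 ligand Pam3CSK4, or both. The members were the rows of the count table with the symbols Ifit1, Ifit1bl1, Ifit2, Ifit3 and Ifit3b, which are 5 of 40847 rows, and each of the 5 was among the 14749 genes that passed the filter on low counts. The cells were FLAMs (fetal liver alveolar-like macrophages), a cultured line model of lung alveolar macrophages, and every group received GM-CSF at 30 ng/ml. The 4 groups of 3 libraries each were untreated, TGFβ (recombinant human TGFβ1 at 20 ng/ml in the culture medium), Pam3 (Pam3CSK4 at 25 ng/ml for 18 hours) and Pam3+TGFβ (both agents). No genotype, strain or donor is given in the labels used here, and nothing states that the 3 libraries of a group came from separate cultures, so p-values measure only the spread between these libraries.

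IFIT proteins are cytoplasmic antiviral proteins built from repeated helical units. IFIT1 binds viral RNA whose cap lacks the methyl mark that host mRNA carries and blocks its translation, and the family is also known to bind translation initiation factor eIF3. Their transcription is classically driven by type I interferon: the interferon receptor activates the kinases JAK1 and TYK2, and these lead to the complex ISGF3, which binds the interferon-stimulated response element (ISRE). Pam3CSK4 is a synthetic lipopeptide sensed by TLR2, a receptor that signals through MyD88, and TGFβ is a cytokine needed for alveolar macrophages to form and keep their identity. The study asked whether TGFβ changes the type I interferon answer to TLR2 activation.

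The library totals ran from 34036650 to 44374115 counts. All 8 macrophage markers on a fixed list were above 1 CPM (edgeR's count rate, which divides by the library size after TMM scaling) in every library, as were 8 of 8 alveolar macrophage markers without TGFβ and 7 of 8 with it. The macrophage sum was lower with TGFβ: 32144 to 36447 CPM in untreated against 17637 to 18607 in TGFβ libraries. With Pam3 it was 35043 to 36123, against 26862 to 27517 with Pam3+TGFβ. Most of this sum was Lyz2, at 29824.2 CPM untreated and 15248.5 with TGFβ. The other macrophage markers also averaged lower with TGFβ alone, from Adgre1 (303 and 145) to Mertk (223 and 222). With Pam3, however, Csf1r, Spi1 and Mertk averaged slightly higher when TGFβ was given. The alveolar sum ran 6065 to 6859 CPM in untreated, 7703 to 8242 in TGFβ, 7405 to 7831 in Pam3 and 7579 to 7945 in Pam3+TGFβ libraries. Its markers went both ways: Marco averaged 2147 CPM untreated and 123 with TGFβ, and Fabp4 31.1 and 0.132. Fabp4 was the marker below 1 CPM with TGFβ. The remaining alveolar markers averaged higher with TGFβ alone, among them Siglecf (32.1 and 300). The plasmacytoid dendritic cell list, a cell type known for making interferon, summed to 15.5 to 19.8 CPM in untreated, 20.1 to 21.7 in TGFβ, 22.1 to 25.6 in Pam3 and 37.6 to 39.3 in Pam3+TGFβ libraries. That sum came almost whole from Tcf4, which is not specific to that cell type, while Klk1 had no count and Siglech averaged at most 0.0173 CPM. The fourth marker, Ccr9, averaged 0.207 CPM in untreated, 0.226 in TGFβ, 0.538 in Pam3 and 0.665 in Pam3+TGFβ libraries, the groups with Pam3 being higher as for the IFIT genes. The hepatocyte list summed to 5.94 to 6.31 CPM in untreated, 5.90 to 6.56 in TGFβ, 6.71 to 7.88 in Pam3 and 8.49 to 10.5 in Pam3+TGFβ libraries. Here too the groups with Pam3 were higher. Afp was the 1 of 5 markers above 1 CPM, and averaged 5.77, 5.90, 7.02 and 9.27 CPM in the same groups. The other marker lists, for erythroid, neutrophil, lymphoid, fibroblast or endothelial, and mast or megakaryocyte cells, summed to at most 5.41 CPM in any library. The part of these levels in the IFIT results was not tested. In bulk RNA, fewer cells making a transcript and less of it in each cell cannot be told apart.

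The 5 genes lie in 1 cluster on chromosome 19 of GRCm39, all annotated as protein-coding. Ifit2 spans 34527932 to 34554524 on the plus strand, Ifit3 34560899 to 34566443 (plus), Ifit1bl1 34570291 to 34579356 (minus), Ifit3b 34585328 to 34590801 (plus) and Ifit1 34618271 to 34632174 (plus). A further relative, Ifit1bl2 (34594449 to 34639833, minus), is no member by the rule. Its canonical start lies 128 bases from that of Ifit1, on the opposite strand. Each canonical transcript has 2 or 3 exons, and its largest exon holds 88.4% to 98.4% of the canonical transcript. No exons of different members overlap.

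The members differ greatly in how much sequence they share, which bears on how reads are assigned. Over the coding sequence Ifit3 and Ifit3b matched at 1198 of 1209 aligned bases (99.1%), Ifit1 and Ifit1bl1 at 76.2%, and the other member pairs at 58.1% to 62.8%. Of all 100-base windows in exons, 19.7% of those of Ifit3 and 28.3% of those of Ifit3b occur in both genes. With 150-base windows the shares were 11.3% and 16.2%. For Ifit1 and Ifit1bl1 the shares with any relative were 1.16% and 0.541% at 100 bases, both with Ifit1bl2, and Ifit2 shared none. Reads may therefore move between paralogs, above all between Ifit3 and Ifit3b, and how multiply aligned reads were counted is not given in the sources used here. The Ifit3 and Ifit3b values are uncertain for this reason when taken singly, so their sum is also given.

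The promoters are shown because all 5 members were called higher with Pam3 and in the interaction (though not alike with TGFβ alone), and the ISRE is the known site of ISGF3. The core searched was GAAA, any 2 bases, then GAAA, on both strands, from 250 bases before to 50 bases after each canonical start. Read along each gene, the matches lie on the reverse strand and appear in capitals as TTTC, 2 bases and TTTC. Each stretch begins 20 bases before the first match and is 80 bases long, with Ifit3 and Ifit3b identical at 80 of 80 bases.
Ifit1, chr19:34618165-34618244, plus strand, bases -106 to -27 from the start: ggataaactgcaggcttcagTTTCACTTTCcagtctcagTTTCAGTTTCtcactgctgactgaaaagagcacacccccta
Ifit1bl1, chr19:34579413-34579492, minus strand, bases -136 to -57: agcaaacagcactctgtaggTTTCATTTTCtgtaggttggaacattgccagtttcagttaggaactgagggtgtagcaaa
Ifit3, chr19:34560753-34560832, plus strand, bases -146 to -67: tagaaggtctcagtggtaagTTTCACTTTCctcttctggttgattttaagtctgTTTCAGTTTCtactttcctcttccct
Ifit3b, chr19:34585149-34585228, plus strand, bases -179 to -100: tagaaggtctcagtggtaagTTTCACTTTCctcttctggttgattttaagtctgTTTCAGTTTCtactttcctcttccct

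The core was present in 4 of the 5 members' windows, against 3.84% of 21757 protein-coding promoters of the same length. The printed Ifit3 and Ifit3b stretches are identical at 80 of 80 bases. Matches in their windows, of this or another motif, are therefore not separate observations. Ifit1, Ifit3 and Ifit3b held 2 matches each and Ifit1bl1 held 1, while 2 or more were found in 0.294% of all promoters. In the 200 bases before the start alone, the same 4 members had a match, against 2.45% of promoters. Ifit2, with 10 annotated transcripts, had no match at any of the 7 starts searched. Its nearest match before the coding sequence lies 26 bases before the exon with the start codon (34547619 to 34547770), 19548 bases from the canonical start and inside an intron of that transcript, a place looked at after the promoter result was known. There it reads as follows.
Ifit2, chr19:34547583-34547612, plus strand: tactttctggTTTCAATTTCtcttctttgg

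The Ifit2 gene holds 8 such matches in all, so this one is not special by its presence. Of the other motifs searched, the AP-1 site (TGANTCA) occurred in the Ifit3 and Ifit3b windows (7.15% of promoters) and the TATA box (TATAAA) in that of Ifit1bl1 (13.2%). The palindromic SMAD site (GTCT directly followed by AGAC, 0.267% of promoters), the NF-kB site (4.87%) and the PU.1-IRF composite site (GGAA, any 2 bases, then GAAA, 2.97%) had no match in any member's window. A match is a description of letters, not evidence of binding, and the absence of a match says only that these letters are not in the window.

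Resting FLAMs held little IFIT RNA, Pam3 raised all 5 members, and Pam3 with TGFβ raised them several times further. The summed reads of the 5 members came to 8.81, 18.0 and 15.2 CPM in untreated libraries and 7.55, 11.0 and 7.96 CPM with TGFβ. They came to 135, 113 and 92.9 CPM with Pam3 and to 727, 730 and 665 CPM with Pam3+TGFβ. The groups with Pam3 overlapped with neither group without it, nor with each other, while the TGFβ and untreated libraries overlapped.

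Ifit1, the sensor of incompletely capped RNA, was at 2.08, 3.49 and 3.68 CPM in untreated libraries, 1.05, 1.98 and 1.55 with TGFβ, 46.1, 40.3 and 33.5 with Pam3, and 220, 211 and 188 with Pam3+TGFβ. All Pam3+TGFβ values lay above all Pam3 values, these above all untreated values, and these above all TGFβ values. Ifit1bl1, a close relative of Ifit1 without an assigned role here, was at 0.658, 1.83 and 1.83 CPM untreated, 0.747, 0.815 and 0.524 with TGFβ, 9.86, 9.40 and 7.94 with Pam3, and 40.2, 39.9 and 36.9 with Pam3+TGFβ. Its order of groups with Pam3 was the same, and 1 untreated library fell within the TGFβ range.

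Ifit2, which forms complexes with other IFIT proteins and is known to restrict several RNA viruses in mice, was at 4.92, 9.50 and 6.47 CPM untreated, 3.49, 4.02 and 3.33 with TGFβ, 52.8, 44.6 and 36.4 with Pam3, and 225, 236 and 217 with Pam3+TGFβ. Here no pair of groups overlapped. Ifit3, a partner of other IFIT proteins, was at 0.894, 2.12 and 2.45 CPM untreated, 1.63, 3.06 and 1.73 with TGFβ, 17.7, 13.7 and 10.3 with Pam3, and 168, 170 and 156 with Pam3+TGFβ. Its untreated and TGFβ libraries overlapped, while the groups with Pam3 stood apart.

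Ifit3b, the near copy of Ifit3, was at 0.263, 1.03 and 0.798 CPM untreated, 0.636, 1.09 and 0.838 with TGFβ, 8.27, 5.07 and 4.86 with Pam3, and 73.6, 73.2 and 67.1 with Pam3+TGFβ. It was the member with the fewest reads at rest, with 10, 43 and 28 counts in the untreated libraries. Untreated replicate 1 was the lowest of its group for every member. For all 5 members every Pam3 library lay above every untreated one, as did 15.6% of all tested genes, and every Pam3+TGFβ library above every TGFβ one (25.4% of tested genes) and every Pam3 one (26.8%). Every untreated library lay above every TGFβ one for 2 members, Ifit1 and Ifit2, as for 30.3% of tested genes.

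**Figure D1:**
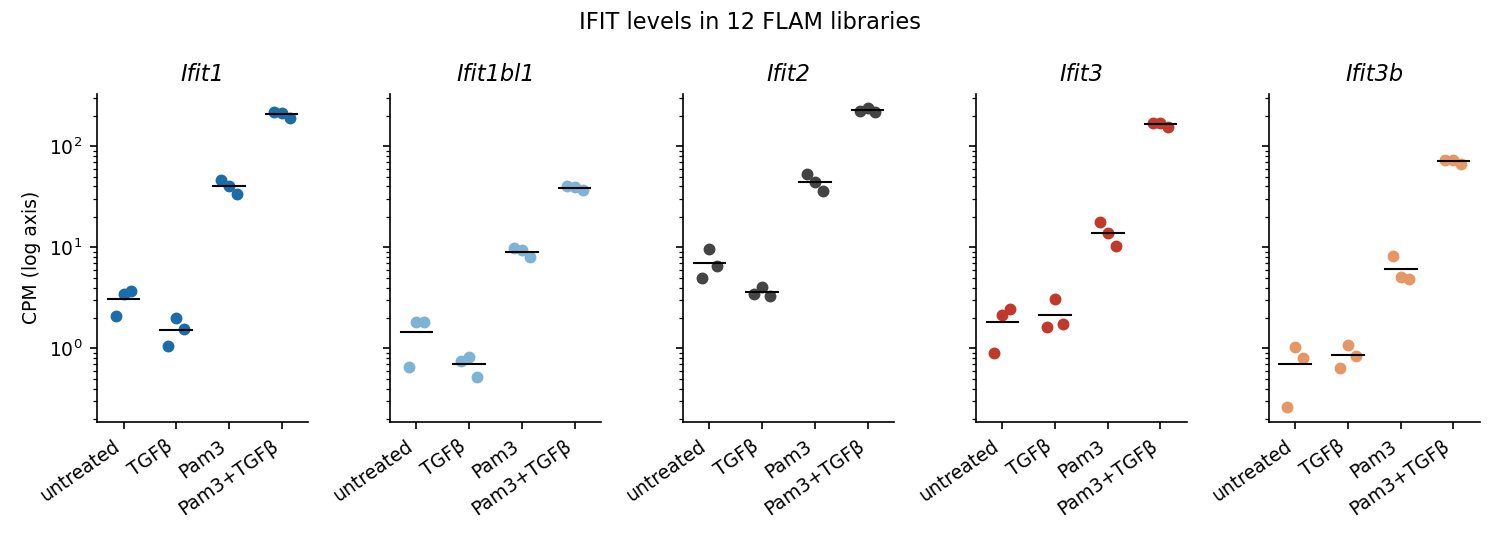
CPM of each IFIT gene on a shared log axis, 1 point per library and a line at the mean of the 3 libraries of each group. In every panel the Pam3+TGFβ points (for Ifit3, 156 to 170 CPM) lie above the Pam3 points (10.3 to 17.7 CPM), and these above both groups without Pam3.

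The first comparison asked what TLR2 activation did in cells without TGFβ. All 5 members were called higher with Pam3 (adjusted p under 0.05), where 9.62% of all tested genes were called higher. Ifit1 changed most, at 3.70 in log2 units (SE 0.216, adjusted p 1.67e-06, edgeR's quasi-likelihood test), nearly 13-fold. Ifit3b rose by 3.11 (SE 0.347, adjusted p 0.000116) and Ifit3 by 2.94 (SE 0.343, adjusted p 0.00038). Ifit2 and Ifit1bl1 rose by 2.67 and 2.66, or 6.37- and 6.31-fold. The members' median was 2.94, beside 0.00 over all tested genes, and they ranked 27th to 64th of 14749 genes by log2 fold change.

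The same comparison in cells with TGFβ gave much larger values. All 5 members were again called higher, beside 20.4% of tested genes, with a median of 6.25. Ifit1 rose by 7.07 (SE 0.242, adjusted p 6.36e-09), a 134-fold rise. Ifit3b, Ifit3, Ifit2 and Ifit1bl1 rose by 6.37, 6.25, 5.96 and 5.80 on the log2 scale, which is 82.5-, 76.1-, 62.4- and 55.7-fold. By size of change the members stood 12th to 47th of all genes.

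The interaction subtracts the log2 response to Pam3 of cells lacking TGFβ from that of cells given TGFβ, and so tests that difference directly. It was called higher for all 5 members, beside 10.3% of tested genes. The values were close to each other: 3.37 for Ifit1 (SE 0.340, adjusted p 9.91e-05), 3.31 for Ifit3 (SE 0.512, adjusted p 0.0024), 3.29 for Ifit2 (SE 0.323, adjusted p 0.000117), 3.26 for Ifit3b (SE 0.558, adjusted p 0.00255) and 3.14 for Ifit1bl1 (SE 0.346, adjusted p 5.18e-06). In fold terms each response was 8.83 to 10.3 times larger with TGFβ, and the highest and lowest members differed by less than the SE of any 1 of them. For the summed reads the interaction was 3.30 (SE 0.363, adjusted p 0.000305).

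Given without Pam3, TGFβ lowered some members and left others uncalled, a difference between members that was not tested. Ifit1 fell by 1.00 in log2 units (SE 0.299, adjusted p 0.0193), Ifit1bl1 by 1.04 (SE 0.310, adjusted p 0.0101) and Ifit2 by 0.95 (SE 0.262, adjusted p 0.0142), so 3 of 5 members were called lower, beside 28.1% of all tested genes. Ifit3 (0.25, 95% interval -0.73 to 1.24, adjusted p 0.666) and Ifit3b (0.29, -0.78 to 1.35, adjusted p 0.654) were not called, and both intervals include an increase of 1 on the log2 scale. These 3 calls rest on few libraries: without TGFβ replicate 3 none of them passed (adjusted p 0.0584, 0.0604 and 0.0514), and without untreated replicate 2 only that of Ifit2 did. The call of Ifit1 was also lost without untreated replicate 3 (adjusted p 0.0708) or TGFβ replicate 1 (0.0603), and that of Ifit1bl1 when only the compared groups were fitted (0.0515). The summed reads were lower by 0.66 (SE 0.283, adjusted p 0.0839), which did not pass, though it did with DESeq2 (-0.65, adjusted p 0.0241) and without untreated replicate 1 (-0.89, adjusted p 0.0112).

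Given with Pam3, TGFβ raised all 5 members, beside 21.5% of tested genes called higher. Ifit3 and Ifit3b rose most, by 3.56 (SE 0.266, adjusted p 4.67e-06) and 3.55 (SE 0.234, adjusted p 3.91e-07), or 11.8- and 11.7-fold. Ifit1, Ifit2 and Ifit1bl1 rose by 2.37, 2.34 and 2.10, or 5.16-, 5.06- and 4.29-fold. Against untreated cells, both agents together raised Ifit3b 101-fold, Ifit3 90.5-fold, Ifit1 66.9-fold, Ifit2 32.3-fold and Ifit1bl1 27.0-fold, again 5 of 5 beside 25.0% of tested genes. These comparisons share libraries with the Pam3 responses and the interaction and add no independent evidence.

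**Figure D2:**
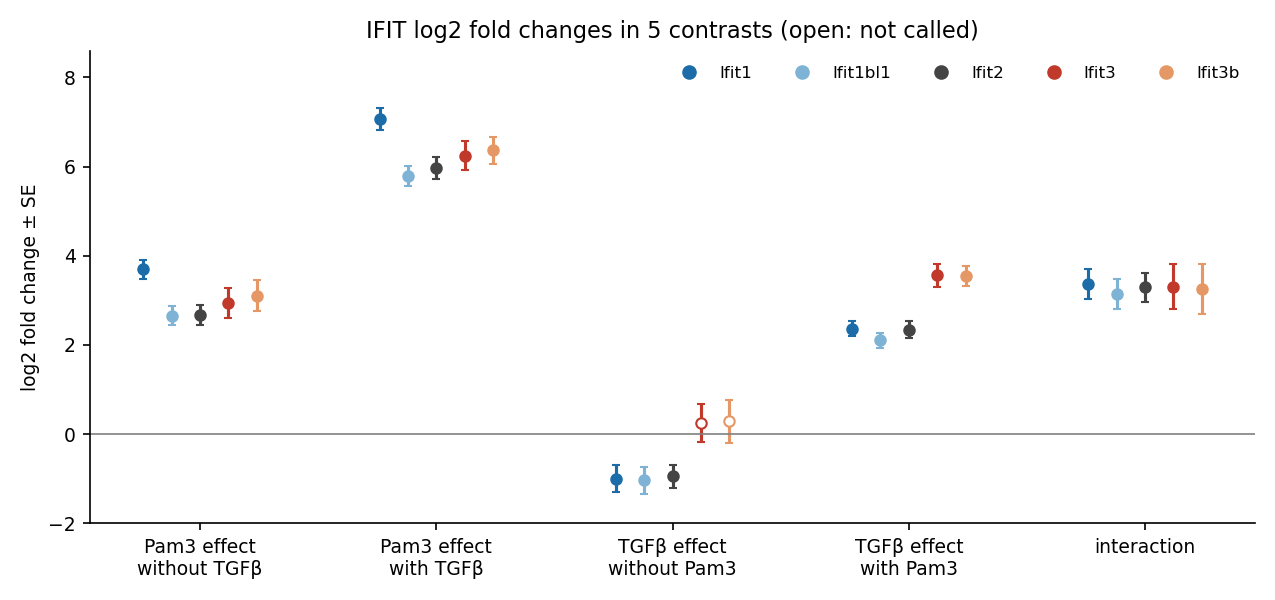
Log2 fold change with its standard error for each IFIT gene in 5 contrasts, filled where called at an adjusted p under 0.05 and open where not. The 5 interaction values lie between 3.14 and 3.37, while in both TGFβ contrasts Ifit3 and Ifit3b (0.25 and 0.29 without Pam3, 3.56 and 3.55 with it) sit above the other 3 members.

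The make-up of the family was described by the share of IFIT reads that each member took. Ifit3 and Ifit3b together held 17.3% ± 4.11 of the reads in untreated and 17.4% ± 1.64 in Pam3 libraries, against 33.4% ± 4.02 with TGFβ and 33.4% ± 0.177 with Pam3+TGFβ (SD, n = 3). The ranges were 13.1% to 21.3% and 16.3% to 19.3% without TGFβ and 30.0% to 37.8% and 33.2% to 33.6% with it, so libraries with and without TGFβ did not overlap. Ifit2 held the largest mean share in every group, 50.4% untreated, 41.5% with TGFβ, 39.3% with Pam3 and 32.0% with Pam3+TGFβ. Ifit1 held 22.4%, 17.1%, 35.3% and 29.2%, and Ifit1bl1 9.87%, 7.97%, 8.06% and 5.51%.

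The difference was also described by ratios of read counts within a library, which need no scaling between libraries. The 3 ratios were chosen after the shares had been seen, so they carry no test. The ratio of Ifit3 and Ifit3b to the other 3 members averaged 2.40 times higher with TGFβ (log2 difference 1.27), by 1.28 without Pam3 and 1.25 with it, and libraries with and without TGFβ did not overlap within either Pam3 condition. With Pam3 this ratio differed by 0.02 on the log2 scale, and the libraries overlapped. The ratio of Ifit1 to Ifit2 differed with the other agent: it averaged 2.12 times higher with Pam3 (log2 difference 1.08), by 1.01 without TGFβ and 1.15 with it. It ran from 0.302 to 0.568 without Pam3 and from 0.866 to 0.978 with it. With TGFβ it differed by -0.05 on the log2 scale, and the libraries overlapped.

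The ratio of Ifit3 to Ifit3b ran from 2.05 to 3.40 over the 12 libraries, with overlap between the groups compared for either agent. Because these paralogs share windows, a ratio between them is uncertain. Leaving out any 1 library kept the log2 difference of the first ratio with TGFβ between 1.15 and 1.36 and that of Ifit1 to Ifit2 with Pam3 between 0.97 and 1.17.

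**Figure D3:**
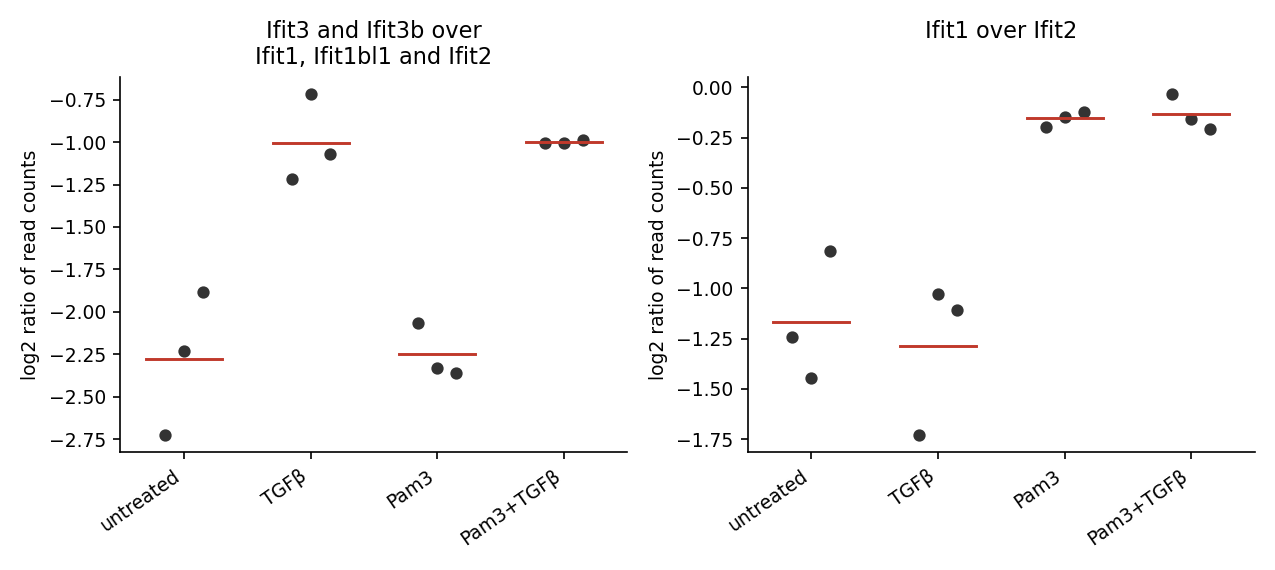
Log2 ratio of read counts within each library, 1 point per library and a line at the group mean, for Ifit3 and Ifit3b over the other 3 members (left) and for Ifit1 over Ifit2 (right). The left ratio is high in both groups with TGFβ (group means close to -1, against -2.28 and -2.25 without it), and the right ratio is high in both groups with Pam3 (-0.15 and -0.13, against -1.17 and -1.29).

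Levels were compared between members per kilobase of canonical transcript. In untreated cells Ifit2 was at 1.52 ± 0.508 CPM per kb, Ifit3 at 0.872 ± 0.393, Ifit1bl1 at 0.653 ± 0.307, Ifit1 at 0.415 ± 0.118 and Ifit3b at 0.342 ± 0.194 (SD, n = 3), and each of these neighbours in order overlapped. With TGFβ the order was Ifit3 (1.02 ± 0.382), Ifit2 (0.787 ± 0.0797), Ifit3b (0.418 ± 0.110), Ifit1bl1 (0.316 ± 0.0692) and Ifit1 (0.205 ± 0.0623). Of the neighbours in this order, Ifit2 and Ifit3b did not overlap (0.725 to 0.877 against 0.312 to 0.532), and the others did.

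With Pam3 the levels were 9.72 ± 1.79 CPM per kb for Ifit2, 6.65 ± 1.78 for Ifit3, 5.38 ± 0.854 for Ifit1, 4.12 ± 0.454 for Ifit1bl1 and 2.97 ± 0.936 for Ifit3b, and of these neighbours Ifit1 and Ifit1bl1 alone did not overlap, by a narrow margin (lowest 4.51 against highest 4.48). With Pam3+TGFβ they were 78.8 ± 3.54 for Ifit3, 49.3 ± 2.07 for Ifit2, 34.9 ± 1.78 for Ifit3b, 27.8 ± 2.23 for Ifit1 and 17.7 ± 0.841 for Ifit1bl1, and no neighbours overlapped. The order depends on the length used, since the annotated Ifit1 and Ifit2 transcripts (7421 and 4588 bases) are far longer than their coding sequences (1389 and 1410 bases). Per kilobase of coding sequence, Ifit2 (160 CPM), Ifit1 (149) and Ifit3 (136) came close together with Pam3+TGFβ, above Ifit3b (59.0) and Ifit1bl1 (27.7).

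**Figure D4:**
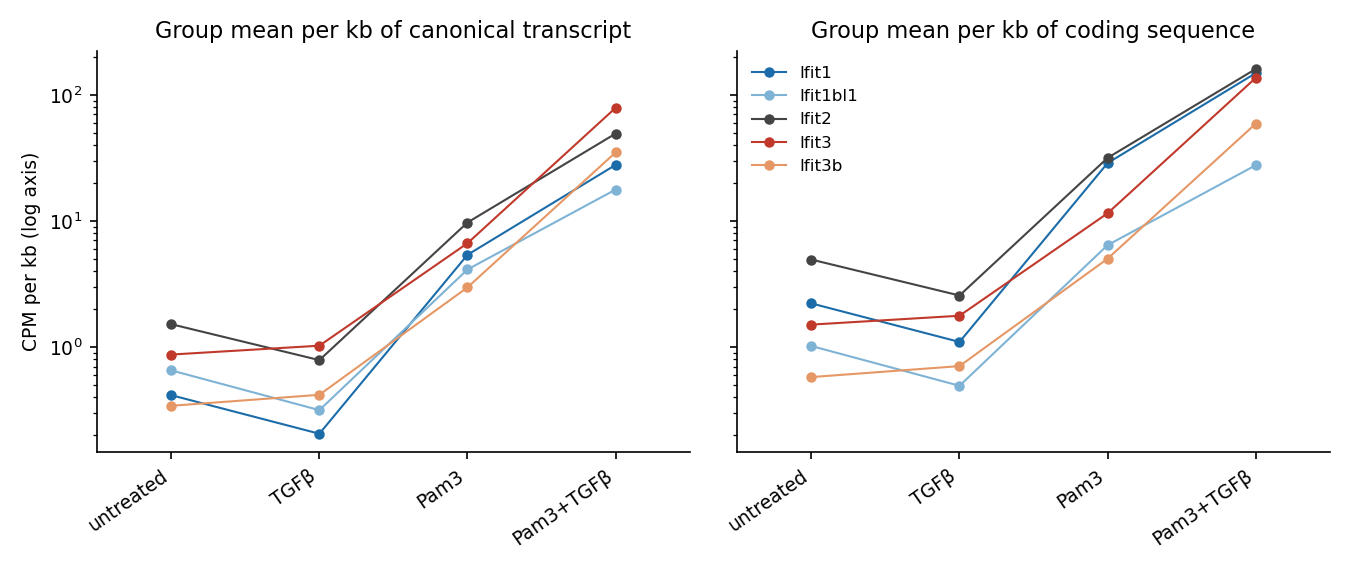
Group mean CPM per kilobase of canonical transcript (left) and of coding sequence (right) on a shared log axis, 1 line per gene. With Pam3+TGFβ, Ifit3 leads on the left (78.8) and Ifit2 on the right (160), while on both scales each gene is higher in both groups with Pam3 than in either group without it.

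Members were also set against each other and against all other tested genes by the root mean square difference of their log2 CPM, centred on the untreated mean, over the 12 libraries. Within the family Ifit1bl1 was nearest to Ifit2 (0.26) and Ifit3 to Ifit3b (0.27), and the other pairs lay 0.75 to 1.25 apart. The 8 other genes nearest to the family's mean pattern were Rsad2 (0.30), Oasl1 (0.36), Cmpk2 (0.39), Usp18 (0.46), Irf7 (0.50), Rtp4 (0.59), Il23r (0.61) and Mx2 (0.66), beside 0.47 to 0.67 for the members, which make up that mean. Rsad2 (viperin, an antiviral enzyme) averaged 3.96, 2.09, 34.6 and 174 CPM in untreated, TGFβ, Pam3 and Pam3+TGFβ libraries, and its neighbour Cmpk2, a nucleotide kinase, 4.18, 2.26, 37.8 and 177 CPM. Il23r, a cytokine receptor, reached only 1.07 CPM in the highest group. It had 0, 1 and 0 counts in untreated libraries and 0 in each TGFβ library. It passed the filter through its Pam3+TGFβ libraries (40, 36 and 48 counts). Its distance therefore depends on the prior count of 0.5 used for log2 CPM, and no likeness to the family is read from it. Its interaction did not pass (adjusted p 0.25), and its size is not given because the groups without Pam3 were almost empty.

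**Figure D5:**
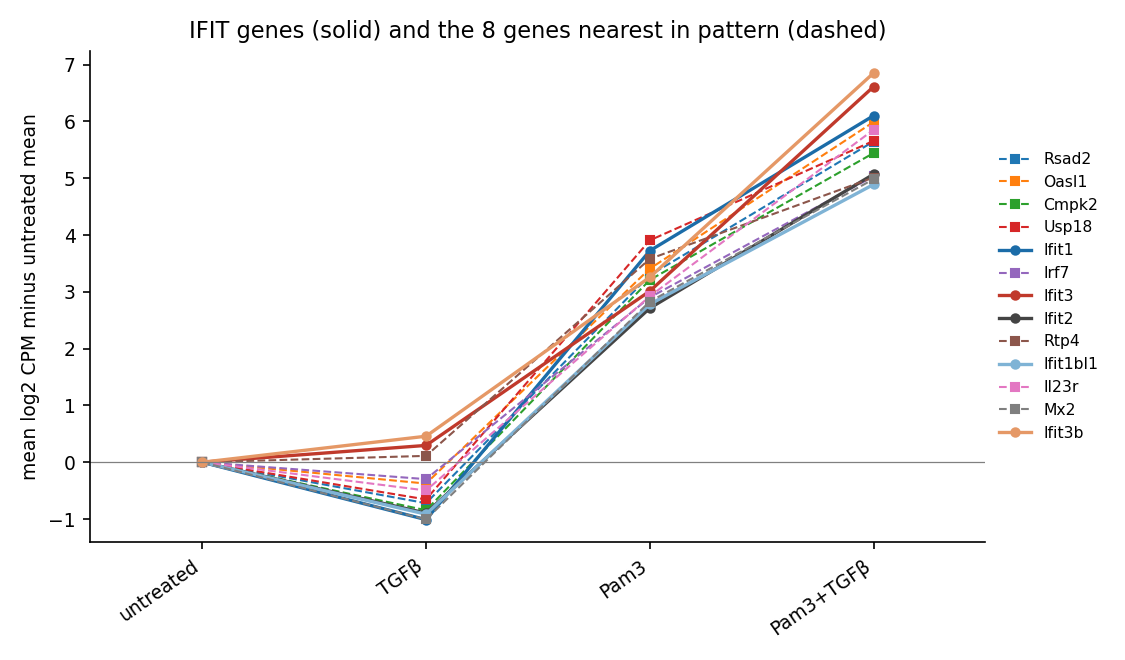
Mean log2 CPM per group minus the untreated mean, for the 5 IFIT genes (solid lines) and the 8 genes nearest to their mean pattern (dashed lines). With TGFβ alone Ifit3 and Ifit3b stand at 0.30 and 0.46 and Rtp4 at 0.11, while the other lines lie below 0. With Pam3+TGFβ all lines lie between 4.89 and 6.85. The heights of the Il23r line depend on the prior count, since it had 0 or 1 counts in each library without Pam3.

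The pathway upstream of the family was described from lists of its parts. Stat2 (1.15, adjusted p 3.67e-12) and Irf9 (0.66, adjusted p 4.37e-06), which encode parts of ISGF3, had called higher interactions. Stat2 averaged 162 CPM with Pam3 and 425 CPM with Pam3+TGFβ, and Irf9 71.7 and 125 CPM. The kinase gene Tyk2 had a small called interaction (0.25, adjusted p 0.00864), the weakest call of this list. The list's number of called interactions fell without untreated replicate 1, and the gene concerned was not identified. The values of the receptor chains Ifnar1 (0.19, adjusted p 0.102) and Ifnar2 (0.17, adjusted p 0.178) and of Jak1 (0.12, adjusted p 0.217) did not pass.

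The ligands themselves were near the limit of detection. None of the 16 type I interferon genes passed the filter, and 14 had no count in any library, which allows up to 3 counts in each. Ifnb1, interferon-beta, was counted 11, 18 and 10 times with both agents and 0 times in each of the other 9 libraries. Ifnk, interferon-kappa, had 2, 10 and 12 counts with Pam3+TGFβ, 5, 1 and 5 with Pam3, and 0 to 3 counts in the libraries without Pam3.

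Of 16 genes of interferon-beta induction, 11 had a called higher interaction and 1 a lower one (median 0.55), beside 10.3% of all tested genes called higher and 5.67% called lower. The list was led by Irf7, the interferon-inducible regulator of interferon genes (2.45, adjusted p 0.000256), and the RNA sensors Ddx58 (1.63, adjusted p 4.28e-12) and Ifih1 (1.51, adjusted p 4.34e-10). The 1 lower was Irf8 (-0.29, adjusted p 0.00447). Of 8 feedback genes, 4 were called higher and none lower (median 0.96), beside the same 10.3% and 5.67%. Isg15, which encodes a ubiquitin-like protein that USP18 removes from its targets, had an interaction of 3.23 (adjusted p 4.55e-10), Usp18 itself 2.43 (adjusted p 6.36e-05), and the inhibitors of cytokine signalling Socs3 and Socs1 1.97 (adjusted p 1.21e-06) and 1.78 (adjusted p 4.49e-08). Without Pam3, TGFβ lowered Socs3 (-2.10, adjusted p 4.34e-09) and Socs1 (-1.62, adjusted p 4.71e-10). With Pam3 their TGFβ differences did not pass (-0.12, adjusted p 0.391, and 0.17, adjusted p 0.234). Of the 8 feedback genes, TGFβ lowered 6 and raised 1 without Pam3, beside 28.1% and 22.9% of tested genes. With Pam3 it raised 3 and lowered 3, beside 3165 and 3514 of 14749 tested genes.

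Other interferon-stimulated genes were called in the same direction as the family. Of 30, 29 had a called higher interaction and none a lower one (median 1.68, beside 3.29 for the IFIT members), where 10.3% of all tested genes were called higher and 5.67% lower, the exception being Ifi44 with few counts (2.41, adjusted p 0.157). The largest were Cxcl10, a chemokine for T cells (6.57, adjusted p 3.44e-05), Mx1, an antiviral GTPase (4.29, adjusted p 8.26e-05), and Rsad2 (3.24, adjusted p 0.00287). Where Pam3 was absent, TGFβ lowered 20 of these 30 and raised 1, Dhx58 (0.20, adjusted p 0.0336), with a median of -0.56, beside 28.1% of tested genes called lower and 22.9% called higher. The call of Dhx58 was lost when only the compared groups were fitted and without untreated replicate 3, where 0 of the 30 were called higher. Where Pam3 was present, TGFβ raised 29 (median 1.09), beside 21.5% of tested genes called higher. Of 18 genes for cap methylation, eIF3 subunits and the IFIT1-binding protein STING, 2 had a called higher interaction (median 0.07), a share near the 10.3% of all tested genes. They were Eif3k (0.24, adjusted p 0.0305) and Sting1 (0.24, adjusted p 0.0365), which also stands on the induction list. Both calls were lost with upper-quartile scaling and without untreated replicate 2, where 0 genes of the cap methylation and eIF3 list were called higher. The 3 largest values of that list, for Eif3m (-0.35, adjusted p 0.69), Eif3e (-0.31, adjusted p 0.175) and Cmtr1 (0.27, adjusted p 0.378), did not pass.

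The genes beside the cluster are given for comparison. Lipa, a lysosomal lipase 5769 bases from Ifit2, averaged 1535, 890, 1480 and 1079 CPM in untreated, TGFβ, Pam3 and Pam3+TGFβ libraries and fell with TGFβ both without Pam3 (-0.79, adjusted p 4.48e-12) and with it (-0.46, adjusted p 1.14e-07). Its interaction was called higher, at 0.33 (adjusted p 0.00298), below the members' 3.14 to 3.37. Slc16a12, on the other side, had no count in any library. Ch25h, an interferon-inducible cholesterol hydroxylase 75368 bases away, averaged 25.5, 1.31, 38.0 and 42.9 CPM, with an interaction of 4.45 (adjusted p 4.5e-13) while its difference with TGFβ among Pam3-treated cells, 0.18, did not pass (adjusted p 0.199).

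Farther out, the death receptor gene Fas had an interaction of 1.46 (adjusted p 3.24e-05) and a difference with TGFβ of -0.23 among Pam3-treated cells (adjusted p 0.172), while the interactions of Pank1 (-0.30, adjusted p 0.161) and Kif20b (0.14, adjusted p 0.422) did not pass. Ifit1bl2, inside the cluster, was low, with 6, 7 and 0 counts in untreated, 1, 4 and 0 in TGFβ, 44, 40 and 15 in Pam3 and 76, 77 and 80 in Pam3+TGFβ libraries. It was called higher with Pam3 without TGFβ (2.97, adjusted p 0.00133) and with it (5.44, adjusted p 8.8e-07). Its interaction (2.47, adjusted p 0.119) and its TGFβ effect with Pam3 (1.17, adjusted p 0.0642) did not pass, and with both agents it averaged 2.03 CPM beside 206 CPM for Ifit1, whose start lies 128 bases away. The promoter window of the canonical Ifit1bl2 start also held 2 ISRE core matches. They are the 2 matches shown for Ifit1, met from the opposite strand.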

How the data were processed

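Per the labels' protocols, libraries came from a stranded mRNA kit and were sequenced as paired ends. The stated read length of 150 bases and the stated kit of 100 cycles differ, so windows of both lengths were used. Per the submitters' processing notes, reads were aligned to GRCm39 with Bowtie2 2.4.1 and counted with featureCounts of Subread 2.0.0. Bowtie2 does not split reads over introns, so junction reads can be lost. The annotation, strand setting and handling of multiply aligned reads are not given in the sources used here. The deposited counts are whole reads per gene, while the authors' normalized signal is that count divided by 1 constant per library. Counts were used for all main tests.

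Genes passing filterByExpr (minimum count 10) were scaled by TMM and fitted in R 4.3.3 by edgeR 4.0.16 (quasi-likelihood, robust), with 4 group means over 12 libraries. P-values were adjusted by Benjamini-Hochberg over all 14749 genes in each of 6 contrasts. SE is the log2 fold change divided by the square root of F. Replicate pairs differed by more than sampling noise, by chi-square per degree of freedom. Untreated replicates 1 and 2 gave 17.7, against 159 and 183 for pairs with replicate 3. TGFβ replicates 1 and 3 gave 16.0, against 161 and 217 for pairs with replicate 2. Pam3 replicates 2 and 3 gave 24.6, against 133 and 220 for pairs with replicate 1. Pam3+TGFβ pairs gave 9.99 to 28.0. The cause of these differences between replicates was not tested. Ratios between members are descriptions. Positions, promoters and windows come from GENCODE M39 on GRCm39. Protein-level identity was not analysed here. The scripts were tested on simulated data. Alternatives were RLE size factors, upper-quartile scaling, DESeq2 1.42.0, limma-trend (limma 3.58.1) on log2 of normalized values plus 1, other filters, a replicate block, the compared groups alone, and leaving out each library. The members, lists and tests were chosen with earlier results of these data known. All members are named, and from each list the 3 tested genes with the largest interaction, the receptor and ISGF3 list (1 gene of it is not reported here, nor are that list's counts), interferons with counts, the 8 nearest genes and the neighbours. Ifi44, Irf8, Socs1, Dhx58, Eif3k and Sting1 were named after their values were seen. Counting floors cover counting error only.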

Additional observations from a re-analysis of the deposited data

Results flagged for a closer look

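The Pam3 response of each of the 5 members differed between cells with and without TGFβ by the interaction test of edgeR's quasi-likelihood fit. The interaction was 3.37 for Ifit1, 3.14 for Ifit1bl1, 3.29 for Ifit2, 3.31 for Ifit3 and 3.26 for Ifit3b on the log2 scale, with adjusted p values from 5.18e-06 to 0.00255, beside 10.3% of all tested genes called higher and 5.67% called lower. All 3 Pam3+TGFβ libraries exceeded all 3 Pam3 libraries for every member, as for 26.8% of all tested genes. Groups of 3 libraries are too small for a test of single outlying samples.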

How the results depend on the processing

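In the Pam3 responses, the TGFβ effect with Pam3, the interaction and both agents against untreated, all 5 members were called under each alternative run and in each of the 12 fits without 1 library. For TGFβ without Pam3, the members called lower numbered 0 to 3 in fits without 1 library (main count 3), and Ifit1bl1 missed the threshold when only the compared groups were fitted (adjusted p 0.0515). In fits without 1 library Ifit3 ran from -0.09 (without TGFβ replicate 2) to 0.50 (without untreated replicate 3) and Ifit3b from -0.08 (without untreated replicate 1) to 0.72 (without untreated replicate 2), uncalled throughout, and limma-trend gave 0.45 for Ifit3b (adjusted p 0.412). The summed reads gave -0.65 with DESeq2 (adjusted p 0.0241) and ran from -0.89 to -0.43 without 1 library, called there only without untreated replicate 1; the cause was not tested. Without a filter the shares of genes called fell to 5.95%, 12.9%, 17.7%, 13.6%, 6.76% and 15.9%, since more genes were tested. The log2 ratio of Ifit3 to Ifit2 per length with Pam3+TGFβ was 0.68, 0.58 by exon union and -0.24 by coding length. Counts of the cap methylation and eIF3 list moved by over 1.5 times in many settings (interaction 0 to 2), as did the 1 other interferon-stimulated gene raised by TGFβ without Pam3 (0 to 2). By the largest difference of group means, 6 of the 8 nearest genes were the same, among them Il23r with its almost empty groups without Pam3. No pairing by replicate number was seen: same-numbered libraries correlated at -0.17 to 0.26, 7 of 18 pairs over 0.1, and 5 of 12 libraries matched their own number best. Differently numbered libraries reached -0.37 (untreated 3 with TGFβ 2) and 0.30 (TGFβ 2 with Pam3 1). With 3 libraries per group these correlations cannot exclude a pairing. With the replicate block all calls of members stayed, with 5 called in the interaction (adjusted p at most 0.00855). Depth limits the resting levels, where Ifit3b had 10 to 43 counts.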
